A study of Mus musculus with 12 samples.

Results

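The mitotic and S-phase genes are a list of 40 genes that encode the machinery of DNA replication and of mitosis, picked by name from the 56923 genes in a table of RNA-seq counts from mouse back skin. Of these, 16 act mainly in S-phase and 24 act mainly in mitosis, counting the transcription factors Foxm1 and Mybl2 with the latter. The members are given by name, with no threshold on a measured value, and were proposed with earlier results of these data known. All 40 passed the filter on low counts, beside 18529 genes tested in all, and the lowest count of any member in any library was 98, for Ccne1.

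The study asked how lipocalin 2 (LCN2, an iron-carrier-binding protein made by keratinocytes and neutrophils) bears on psoriasis-like skin inflammation. The 12 mice were females, 8 to 10 weeks old, and each of the 4 groups held 3. WT control and WT IMQ mice were wild type, and the other groups were labelled Lcn2-/-. The IMQ groups received cream with 5% imiquimod, a TLR7 agonist that evokes a psoriasis-like dermatitis, on the shaved back daily for 6 days, and the control groups received vehicle cream for as long. The sample titles call the genotype a KO, another label field calls it a knockdown, the control treatment is labelled none, and no source used here gives the allele. No other allele or agent was named for any group.

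Cells that divide copy their DNA in S-phase and part the copies in mitosis. Minichromosome maintenance (MCM) proteins are loaded on origins in G1 and unwind DNA in S-phase, cyclin E with CDK2 and cyclins A and B with CDK1 drive the transitions, and the anaphase-promoting complex ends mitosis by degrading cyclin B. In skin these genes are transcribed in the basal epidermis, in the hair matrix of growing (anagen) follicles and in any dividing immune, stromal or vessel cell, so that a bulk library sums over all of them. A smaller share of dividing cells and less of each RNA per dividing cell cannot be told apart in such data.

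Libraries held between 16448226 and 28592110 counts, and levels are given as CPM, a gene's counts in each 1000000 counts of the TMM-scaled library, in which 3 counts equal between 0.105 and 0.182 CPM. This floor of 3 counts covers counting error only, whereas the SEs and SDs given below include the spread between mice. Every library had the keratins of skin, with Krt14 between 1154 and 16988 CPM, and the summed level of 10 retina genes was at most 7.50 CPM, although the labels' extraction text speaks of retinas. Lcn2 was counted in all libraries. It had 86 to 201 counts in WT control mice, 173 to 357 in control mice labelled Lcn2-/-, 1010 to 2723 in WT IMQ mice and 511 to 830 in IMQ mice labelled Lcn2-/-. The counts therefore go against a complete loss of the transcript, and the groups are called by their labels.

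None of the 40 members was called higher with IMQ in mice of either label. Much of their spread came from 1 library, WT control mouse 2, which had the lowest level of all 12 mice for 32 of 40 members, namely all 24 mitotic genes and 8 of 16 S-phase genes. The mean of the other two WT control mice was above this mouse by a median of 3.80-fold over the mitotic members, with a range of 2.43 to 6.61-fold, and by a median of 2.15-fold over the S-phase members, with a range of 1.41 to 3.10-fold. Summed over the 24 mitotic members, the WT control mice had 1700 (mouse 1), 471.5 (mouse 2) and 1877 (mouse 3) CPM. The WT IMQ mice had 1435, 1078 and 1331 CPM, so that they lay between the low control mouse and the other two. Control mice labelled Lcn2-/- had 1278, 2093 and 1378 CPM, and IMQ mice labelled Lcn2-/- had 1051, 994.9 and 855 CPM, all below the 3 controls of their label.

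The S-phase sums again had WT control mouse 2 as the lowest library, with a smaller gap. The 16 S-phase members summed to 1021, 593 and 1264 CPM in the WT control mice and to 875, 759 and 892 CPM in the WT IMQ mice. They summed to 847, 1172 and 794 CPM in control mice labelled Lcn2-/- and to 610.4, 702 and 684 CPM in IMQ mice labelled Lcn2-/-. In WT control mouse 2 the mitotic sum was 0.795 of the S-phase sum, whereas it was 1.25 to 1.79 times the S-phase sum in the other 11 mice, so this library was low in mitotic transcripts beyond its lower S-phase level.

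**Figure D1:**
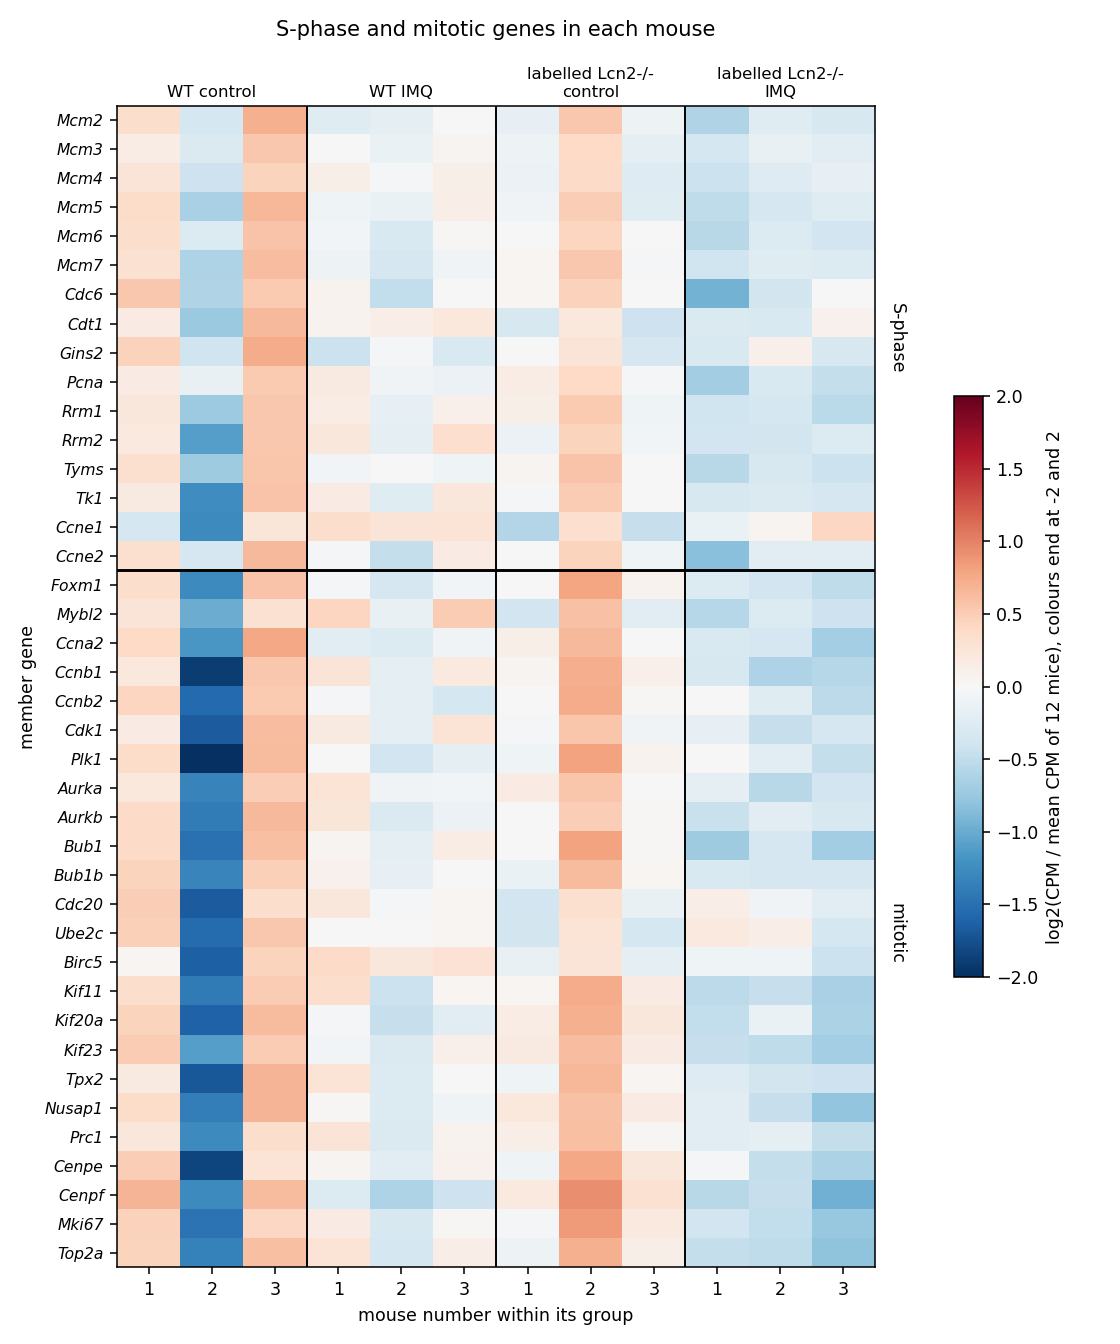
Each row is a member and each column a mouse, and the colour is the log2 of the CPM over the gene's mean in 12 mice. WT control mouse 2 is the darkest column, the lowest of 12 mice for 32 of 40 members, and mouse 2 of the controls labelled Lcn2-/- is the highest of 12 for 17 members.

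The spread within a group differed between groups. The ratio of the highest to the lowest of 3 mice had a median over members of 3.53 in WT control mice, up to 7.22 for Plk1. It was 1.55 in control mice labelled Lcn2-/-, and 1.26 in both IMQ groups. WT control mouse 3 had the highest level of all 12 mice for 20 members, 13 of them S-phase genes. Mouse 2 of the controls labelled Lcn2-/- was highest for 17 members, 16 of them mitotic. The 4 groups share 1 estimate of a gene's spread in edgeR's quasi-likelihood fit, and a gene was called where its p, adjusted by Benjamini and Hochberg's method across the 18529 genes, was under 0.05.

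The comparison of WT IMQ with WT control mice asked what the cream did in wild-type skin. None of the 40 members was called, 0 higher and 0 lower, where 14.2% of all genes tested were called higher and 14.3% lower. At an unadjusted p under 0.05, 0 members were higher and 1 was lower, against 19.4% and 21.1% of all genes, and DESeq2 called 0. The groups did not overlap for 1 member with higher levels, Ccne1, and for 0 with lower levels, against 20.1% and 20.6% of all genes. The median log2 fold change was -0.09 over the members and -0.03 over all genes tested, and 12 members were above 0 and 28 below. Values ran from -0.67 for Cenpf (SE 0.40, adjusted p = 0.228) to 0.64 for Ccne1 (SE 0.34, adjusted p = 0.185).

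These counts depended on WT control mouse 2. All 3 WT IMQ mice were above it for 37 of 40 members, whereas all 3 were below WT control mouse 1 for 27 members and below WT control mouse 3 for 38. Without that mouse, 10 members were called lower, against 11.9% of all genes in that fit, and the median log2 fold change was -0.48. Those 10 were the S-phase genes Mcm2, Mcm6, Mcm7 and Gins2 and the mitotic genes Cenpf, Ccna2, Kif20a, Kif23, Nusap1 and Ccnb2, with Cenpf at -1.08 (adjusted p = 0.0036). The groups then did not overlap for 27 members with lower and 1 with higher levels, against 27.8% and 25.4% of all genes. Leaving out WT control mouse 1 or 3 moved the median to 0.01 or 0.19, and without mouse 3 Ccne1 was called higher, at 1.03 (adjusted p = 0.0476).

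IMQ against control among mice labelled Lcn2-/- gave lower values for nearly the whole list. Of the members, 2 were above 0 and 38 below, with a median log2 fold change of -0.55, beside -0.05 over all genes tested. Under edgeR, 0 were called higher and 1, Pcna, lower, where 14.1% and 11.2% of all genes were called. At an unadjusted p under 0.05, 0 were higher and 8 were lower (Pcna, Rrm1, Tyms, Mcm6, Cenpf, Kif23, Kif11 and Mki67), against 19.7% and 18.8% of all genes. For 28 members the IMQ mice lay wholly below the controls and for 0 wholly above, against 22.8% and 23.1% of all genes. Of those 28, 18 were mitotic and 10 were S-phase genes.

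How many of these members passed the threshold depended on the mice that set the spread. With only the 6 mice of this label in the fit, 19 members were called lower, 13 mitotic and 6 S-phase genes, against 12.3% of all genes in that fit. They included Kif23 at -0.88 on the log2 scale (adjusted p = 0.0044), Cenpf at -1.15 (adjusted p = 0.00708) and Mki67 at -0.92 (adjusted p = 0.0205). DESeq2 on all 12 mice called 3, Pcna, Cenpf and Kif23. The median stayed below 0 without any 1 mouse, and was smallest in size, at -0.34, without mouse 2 of the controls. All 3 IMQ mice were below that mouse for 39 members, and below each of the other controls for 31.

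IMQ mice labelled Lcn2-/- were set against WT IMQ mice to ask how the label changed the treated skin. Of the members 1 was above 0 and 39 were below, with a median log2 fold change of -0.34, beside -0.02 over all genes tested. None was called, 0 higher and 0 lower, where 2.19% and 2.6% of all genes were. At an unadjusted p under 0.05, 0 were higher and 1, Pcna, was lower, against 12.5% and 14.5%. The 3 mice labelled Lcn2-/- lay wholly below the 3 WT mice for 20 members and wholly above for 0, against 17.3% and 16.0% of all genes. DESeq2 called 0 members, and with only these 6 mice in the fit edgeR called 2 lower, Rrm1 at -0.46 (adjusted p = 0.046) and Ccnb1 at -0.59 (adjusted p = 0.0428), against 4.81% of all genes. This comparison shares its IMQ mice with the comparison inside that label and with the comparison inside WT mice, so these are not separate measurements.

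The control groups overlapped for every member. Between control mice labelled Lcn2-/- and WT control mice, 0 members were called higher and 0 lower, against 0.0054% and 0.0054% of all genes. At an unadjusted p under 0.05 the counts were 0 and 0, against 2.65% and 3.95%, and the groups did not overlap for 0 members, where 4.19% and 5.18% of all genes did not overlap with higher or lower levels. The median log2 fold change was 0.14, and it was -0.20 without WT control mouse 2, -0.11 without control mouse 2 labelled Lcn2-/- and 0.45 without WT control mouse 3. The difference between the IMQ effects under both genotypes, tested as the interaction, was below 0 for 38 members and above 0 for 2, with a median of -0.46. It was called for 0 members, against 1.37% of all genes above 0 and 0.783% below. At an unadjusted p under 0.05 it was 0 members each way, against 12.3% and 11.9%, and DESeq2 called 0 in either comparison of this paragraph. Ccnb1 had the lowest value, -0.99 (SE 0.62, adjusted p = 0.347), and Gins2 the highest, 0.43 (SE 0.38, adjusted p = 0.507). Without WT control mouse 2 the median of the interaction was -0.09, without control mouse 2 labelled Lcn2-/- it was -0.23, and without WT control mouse 3 it was -0.74, so its size rested on single control libraries.

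**Figure D2:**
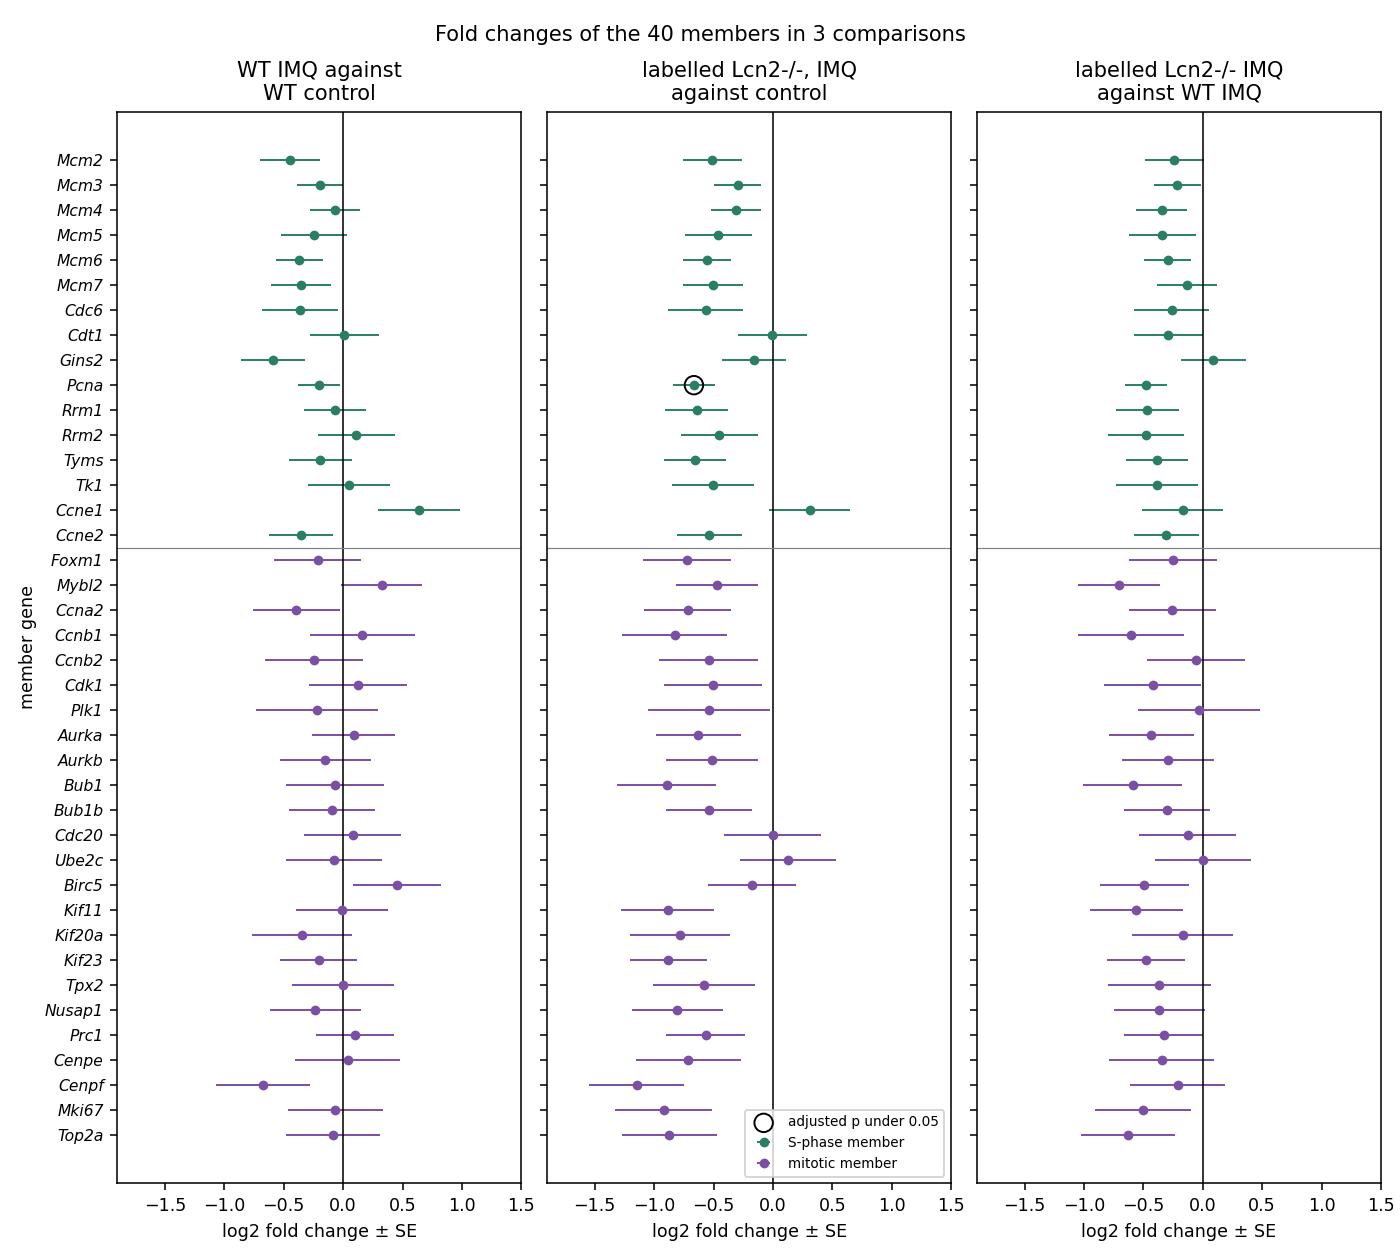
Points are log2 fold changes of the 40 members in 3 comparisons and bars are 1 SE from edgeR's fit of 12 mice, with S-phase members in green and mitotic members in purple. Points lie on both sides of 0 in WT mice (12 above, 28 below) and nearly all lie below 0 in the middle and right panels (38 and 39 of 40), and only Pcna in the middle panel is circled as past the adjusted threshold.

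Among the 9 licensing genes, which load and fire replication origins, 9 were below 0 with IMQ in mice labelled Lcn2-/- and 0 were called. Of all genes tested, 11.2% were called lower there. Mcm6, a subunit of the replicative helicase, was at 122, 79.3 and 142 CPM in WT control mice and 91.8, 76.9 and 97.1 CPM in WT IMQ mice. It was at 95.5, 128 and 94.9 CPM in control mice and 64.7, 78.5 and 73.5 CPM in IMQ mice labelled Lcn2-/-, groups that did not overlap. The log2 fold change within that label was -0.56 (SE 0.20, adjusted p = 0.0602). Mcm5, of the same helicase, had 94.3, 46.8 and 116 CPM in WT control mice and 69.2, 67.2 and 80.7 CPM in WT IMQ mice. In mice labelled Lcn2-/- it had 69.7, 104 and 62.2 CPM without and 51.4, 57.9 and 61.9 CPM with IMQ (log2 fold change -0.46, SE 0.28, adjusted p = 0.25). The lowest control and the highest IMQ mouse of that label were close neighbours for Mcm5, so the gap there was far smaller than the range within each group.

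Gins2, a subunit of the GINS complex of the active helicase, was the licensing gene that stood off from the others. In WT mice its log2 fold change with IMQ was -0.59 (SE 0.27, adjusted p = 0.123), the single unadjusted p under 0.05 of that comparison, and between IMQ groups it was the member above 0, at 0.09. Of its exon bases 67.3% overlap Gse1 on the other strand, and no source used here states strand-specific counting, so reads of both genes may not be told apart. Cdt1, the loading factor that is destroyed once S-phase begins, was at -0.01 on the log2 scale within the mice labelled Lcn2-/-.

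The 5 genes of nucleotide supply and the sliding clamp all had groups without overlap in both comparisons of IMQ mice labelled Lcn2-/-. So had Mcm2, Mcm5, Ccna2, Ccnb1, Aurka, Bub1, Bub1b, Kif11, Kif23, Mki67 and Top2a, so this was not particular to the class. Of all genes tested, 22.8% were wholly lower against the controls of that label and 17.3% against WT IMQ mice, each comparison counted alone. The 5 genes of the class (Pcna, Rrm1, Rrm2, Tyms and Tk1) were wholly lower in IMQ mice labelled Lcn2-/- than in the controls of that label, and also than in WT IMQ mice. Pcna, the clamp that holds DNA polymerase on its template (chr2:132249162-132253314, GRCm38), was at 112, 90.8 and 144 CPM in WT control mice and 113, 95.2 and 92.3 CPM in WT IMQ mice. It was at 111, 133 and 98.02 CPM in control mice and 61.85, 81.7 and 72.1 CPM in IMQ mice labelled Lcn2-/-, which were the 3 lowest of 12, whereas the WT groups overlapped. Group means were 114 ± 17.5 and 71.9 ± 9.94 CPM (SD, n = 3) there, a fold change of 0.631 (log2 -0.67, SE 0.18, adjusted p = 0.0186 by edgeR). The call held with the mice of that label alone and with DESeq2, and it was lost without control mouse 2, IMQ mouse 1 or IMQ mouse 3 of that label, at adjusted p between 0.0586 and 0.0716. Against WT IMQ mice the log2 fold change of Pcna was -0.48 (SE 0.18, adjusted p = 0.116). Pcna has the processed pseudogenes Pcna-ps1 and Pcna-ps2, with which its reads may be shared. The same holds for Tyms, Ccnb1 and Ccnb2, with the pseudogenes Tyms-ps, Ccnb1-ps and Ccnb2-ps.

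Rrm1 and Rrm2 are the subunits of ribonucleotide reductase, which makes deoxyribonucleotides. Rrm1 was at 145, 75.2 and 182 CPM in WT control mice and 138, 111 and 135 CPM in WT IMQ mice, and at 136, 179.8 and 118 CPM in control mice and 94.3, 97.9 and 85.7 CPM in IMQ mice labelled Lcn2-/-. The log2 fold change within that label was -0.64 (SE 0.26, adjusted p = 0.0945), and -0.47 against WT IMQ mice (SE 0.26, adjusted p = 0.273). Rrm2 was at 69.4, 28.0 and 87.8 CPM in WT control mice and 70.6, 52.6 and 76.5 CPM in WT IMQ mice. It was at 55.9, 82.1 and 58.4 CPM in control mice and 46.5, 47.1 and 49.95 CPM in IMQ mice labelled Lcn2-/- (log2 fold change -0.45, SE 0.32, adjusted p = 0.329). Both genes had their lowest WT level in control mouse 2, and the WT IMQ mice fell within the range of the WT controls.

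The G1/S cyclins Ccne1 and Ccne2 had opposite signs with IMQ. Ccne1, a cyclin E that activates CDK2 at the entry to S-phase, was at 8.04, 4.21 and 12.02 CPM in WT control mice and 13.1, 12.2 and 12.3 CPM in WT IMQ mice. It was at 6.77, 12.9 and 7.46 CPM in control mice and 9.34, 10.6 and 13.6 CPM in IMQ mice labelled Lcn2-/-. WT IMQ mice were thus just above the highest WT control, and the groups labelled Lcn2-/- overlapped (log2 fold change 0.31, SE 0.34, adjusted p = 0.539). Ccne2, the other cyclin E, was at 25.8, 16.3 and 32.5 CPM in WT control mice and 20.1, 14.9 and 23.1 CPM in WT IMQ mice. It was at 20.6, 28.1 and 19.4 CPM in control mice and 11.6, 17.7 and 17.8 CPM in IMQ mice labelled Lcn2-/- (log2 fold change -0.53, SE 0.27, adjusted p = 0.167).

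Foxm1 and Mybl2 encode transcription factors that switch on late cell-cycle genes. Foxm1 was at 44.8, 14.5 and 52.3 CPM in WT control mice and 34.3, 28.0 and 33.9 CPM in WT IMQ mice, and at 35.5, 61.1 and 37.1 CPM in control mice and 29, 27.0 and 24.8 CPM in IMQ mice labelled Lcn2-/-. Its log2 fold change within that label was -0.72 (SE 0.37, adjusted p = 0.171). Foxm1 was lower without overlap there, and the WT IMQ mice lay inside the range of the WT controls. Mybl2 was at 18.5, 7.74 and 19.1 CPM in WT control mice, 20.8, 13.98 and 22.0 CPM in WT IMQ mice, 11.9, 23.3 and 13.2 CPM in control mice and 10.4, 12.9 and 11.6 CPM in IMQ mice labelled Lcn2-/-. Between the IMQ groups it had the lowest value of the 40 members, -0.70 (SE 0.35, adjusted p = 0.216), and those 6 mice did not overlap.

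The 7 mitotic cyclins and kinases were all below 0 with IMQ in mice labelled Lcn2-/-. Of them 6 had groups that did not overlap there, where 22.8% of all genes were wholly lower. Ccnb1, the cyclin B whose destruction ends mitosis, was at 67.2, 15.6 and 84.3 CPM in WT control mice and 69.6, 50.6 and 66.5 CPM in WT IMQ mice. It was at 60.2, 95.9 and 62.2 CPM in control mice and 46.3, 37.8 and 38.8 CPM in IMQ mice labelled Lcn2-/-. The log2 fold change was -0.83 within that label (SE 0.44, adjusted p = 0.192) and -0.60 against WT IMQ mice (SE 0.44, adjusted p = 0.4), and in both cases the IMQ mice labelled Lcn2-/- were the lower group without overlap. Ccna2, cyclin A, was at 75.4, 25.4 and 98.1 CPM in WT control mice, 49.2, 47.4 and 54.6 CPM in WT IMQ mice, 61.8, 89.6 and 57.0 CPM in control mice and 46.0, 45.1 and 35.5 CPM in IMQ mice labelled Lcn2-/- (log2 fold change -0.72, SE 0.37, adjusted p = 0.172). The WT IMQ mice lay inside the range of the WT controls for Ccna2 too. Cdk1, the kinase both cyclins activate, was at 55.9, 15.8 and 76.3 CPM in WT control mice, 56.7, 44.0 and 60.6 CPM in WT IMQ mice, 49.5, 73.7 and 47.5 CPM in control mice and 44.45, 36.2 and 39.7 CPM in IMQ mice labelled Lcn2-/- (log2 fold change -0.50, SE 0.41, adjusted p = 0.396). Plk1, the kinase that drives mitotic entry, overlapped within that label and had the widest range of the 40 members, 8.13-fold over 12 mice.

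The 5 checkpoint and anaphase-promoting genes had a median log2 fold change of -0.18 with IMQ in mice labelled Lcn2-/-. Of them 2, Bub1 and Bub1b, had groups that did not overlap there, where 22.8% of all genes were wholly lower. So small a class cannot be told from that share. Bub1b, of the spindle checkpoint, was at 62.2, 18.4 and 63.7 CPM in WT control mice, 48.4, 40.9 and 45.8 CPM in WT IMQ mice, 41.7, 71.0 and 46.9 CPM in control mice and 37.1, 36.2 and 36.3 CPM in IMQ mice labelled Lcn2-/- (log2 fold change -0.54, SE 0.36, adjusted p = 0.296). Cdc20, which activates the anaphase-promoting complex, was at 58.1, 12.9 and 52.8 CPM in WT control mice, 48.35, 40.1 and 42.3 CPM in WT IMQ mice, 31.5, 51.6 and 37.0 CPM in control mice and 45.1, 39.3 and 35.4 CPM in IMQ mice labelled Lcn2-/-. Its groups overlapped in both labels, and the log2 fold change within mice labelled Lcn2-/- was -0.003 (SE 0.41, adjusted p = 0.997). Ube2c, the ubiquitin carrier of that complex, was at 50.2, 12.4 and 52.0 CPM in WT control mice, 35.9, 35.9 and 37.1 CPM in WT IMQ mice, 27.9, 43.4 and 28.4 CPM in control mice and 41.2, 39.3 and 28.4 CPM in IMQ mice labelled Lcn2-/- (log2 fold change 0.13, SE 0.40, adjusted p = 0.843). It was 1 of the 2 members above 0 there, beside Ccne1, and its groups overlapped in both labels. Of its exon bases 22.8% overlap Tnnc2, a muscle troponin gene on the other strand. The summed level of 10 skeletal muscle genes was 6288 to 13841 CPM over the 12 mice. It was 11572, 6708 and 12411 CPM in control and 6734, 9706 and 6651 CPM in IMQ mice labelled Lcn2-/-. Members that follow the list also overlap genes on the other strand, namely Kif20a (29.3% of exon bases), Ccne2 (17.4%), Ccna2 (12.5%) and Prc1 (11.1%). Bub1, a checkpoint kinase, was at -0.90 on the log2 scale (SE 0.42, adjusted p = 0.137), so the class was not uniform.

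The 8 spindle and midzone genes were all below 0 within mice labelled Lcn2-/-, and 7 had groups without overlap, against 22.8% of all genes wholly lower. Tpx2, which nucleates spindle microtubules, was at 70.3, 19.1 and 98.95 CPM in WT control mice, 74.5, 51.2 and 62.4 CPM in WT IMQ mice, 58.0, 97.3 and 63.4 CPM in control mice and 51.5, 48.0 and 46.5 CPM in IMQ mice labelled Lcn2-/-. Tpx2 was lower without overlap there, with a log2 value of -0.58. Kif11, the kinesin that pushes spindle poles apart, was at 76.0, 22.4 and 84.7 CPM in WT control mice, 76.0, 44.4 and 61.1 CPM in WT IMQ mice, 61.1, 99.8 and 66.8 CPM in control mice and 41.6, 43.55 and 38.1 CPM in IMQ mice labelled Lcn2-/-. The 3 lowest Kif11 levels outside WT control mouse 2 were those of the IMQ mice labelled Lcn2-/-, with log2 fold changes of -0.88 against their controls (SE 0.39, adjusted p = 0.12) and -0.56 against WT IMQ mice (SE 0.39, adjusted p = 0.376). Cenpf, a kinetochore protein, had the lowest value of the 40 members within that label, -1.15 (SE 0.40, adjusted p = 0.056), with means of 59.4 ± 17.1 and 26.8 ± 4.70 CPM (SD, n = 3), and Kif23, the kinesin of the midzone, was at -0.88 (SE 0.33, adjusted p = 0.069).

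Mki67 and Top2a encode the proliferation antigen that coats mitotic chromosomes and the topoisomerase that untangles them. Mki67 was at 348, 90.35 and 338 CPM in WT control mice and 282, 202 and 258 CPM in WT IMQ mice, and at 245, 455 and 289 CPM in control mice and 194, 179.9 and 149 CPM in IMQ mice labelled Lcn2-/-. Within WT mice the log2 fold change was -0.07 (SE 0.40, adjusted p = 0.925), with the IMQ mice between the low control and the other two. Within mice labelled Lcn2-/- it was -0.92 (SE 0.41, adjusted p = 0.1185) and the groups did not overlap, and against WT IMQ mice it was -0.51 (SE 0.40, adjusted p = 0.44). Top2a was at 234, 67.1 and 262 CPM in WT control mice, 208, 134 and 189 CPM in WT IMQ mice, 161, 281 and 188 CPM in control mice and 124, 121 and 98.6 CPM in IMQ mice labelled Lcn2-/-. It followed Mki67, with log2 fold changes of -0.87 within that label (SE 0.40, adjusted p = 0.13) and -0.63 against WT IMQ mice (SE 0.40, adjusted p = 0.329). Per kilobase of exon, the mean levels over 12 mice ran from 2.45 CPM for Cdc6 to 25.1 CPM for Mki67 and 41.9 CPM for Pcna.

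**Figure D3:**
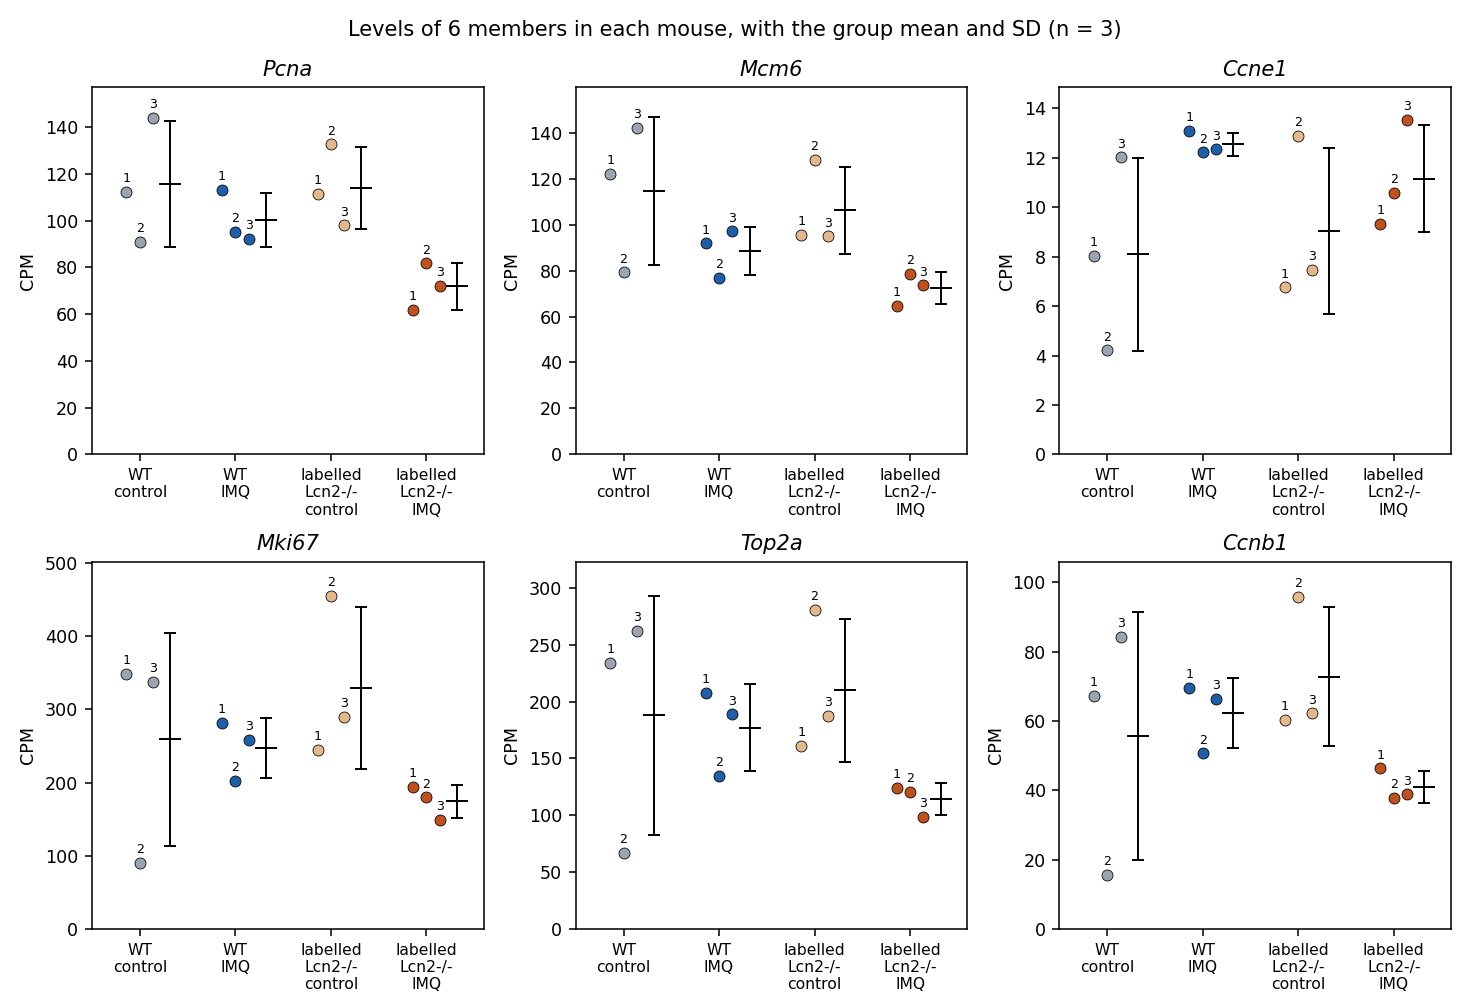
CPM of 3 S-phase members (upper row) and 3 mitotic members (lower row) in each mouse, with the number of the mouse beside each point and the group mean and SD (n = 3) as a bar. Mki67, Top2a and Ccnb1 share the low WT control mouse 2 (90.35, 67.1 and 15.6 CPM), Pcna is lowest in the 3 IMQ mice labelled Lcn2-/-, and Ccne1 is the member whose WT IMQ mice all lie above the WT controls.

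The upstream sequences of S-phase and mitotic members are described, and some are shown, because their median shortfall differed in WT control mouse 2. The other WT controls were above it by a median of 3.80-fold over mitotic and 2.15-fold over S-phase members. The ranges overlapped, at 2.43 to 6.61-fold and 1.41 to 3.10-fold. RefSeq's promoter table (GRCm38.p6) holds 32 of the 40 members, and the 250 bases before the start were searched on both strands for E2F sites (TTTCCCGC, TTTCGCGC, TTTGCCGC or TTTGGCGC), for the core of the cell-cycle homology region, or CHR (TTTGAA), and for the CCAAT box. E2F sites were in 4 of 13 S-phase and 1 of 19 mitotic members, and in 2.16% of 27025 genes. The CHR core was in 1 of 13 S-phase and 8 of 19 mitotic members, and in 18.3% of all genes, and CCAAT was in 8 of 13 and 16 of 19, and in 37.5% of all genes. Both CHR and CCAAT were in 8 of 19 mitotic members and in 6.45% of all genes. A match is a description of letters and not evidence of a bound factor, and E2F proteins act on S-phase genes and the DREAM and MuvB complexes on CHR elements as general background. In the following sequences the capitals mark these motifs, or their reverse complements. Each runs 5′ to 3′ along the gene's strand up to the base before RefSeq's start, from which distances are counted. The start of the gene in GENCODE M21 differs for Mcm5, Mcm6, Cdk1 and Kif11. For Cdk1 the last bases shown lie inside the GENCODE gene.
Mcm5, chr8:75109259-75109508, plus strand: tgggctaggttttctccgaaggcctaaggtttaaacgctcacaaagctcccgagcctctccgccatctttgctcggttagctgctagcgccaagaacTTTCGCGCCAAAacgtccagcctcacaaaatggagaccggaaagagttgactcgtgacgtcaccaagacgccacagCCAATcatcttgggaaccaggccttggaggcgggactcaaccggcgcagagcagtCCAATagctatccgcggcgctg
Mcm6, chr1:128359706-128359955, minus strand: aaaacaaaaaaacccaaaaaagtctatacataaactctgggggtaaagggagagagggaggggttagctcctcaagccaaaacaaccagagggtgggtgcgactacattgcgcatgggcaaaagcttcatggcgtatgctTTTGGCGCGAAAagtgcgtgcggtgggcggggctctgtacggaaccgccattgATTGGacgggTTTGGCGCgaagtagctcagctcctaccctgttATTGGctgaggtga
Cdk1, chr10:69352913-69353162, minus strand: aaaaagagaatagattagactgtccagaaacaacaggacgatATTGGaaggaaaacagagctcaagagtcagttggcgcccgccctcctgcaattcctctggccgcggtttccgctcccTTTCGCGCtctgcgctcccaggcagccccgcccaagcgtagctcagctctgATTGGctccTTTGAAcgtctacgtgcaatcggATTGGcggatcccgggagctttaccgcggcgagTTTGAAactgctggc
Top2a, chr11:99024190-99024439, minus strand: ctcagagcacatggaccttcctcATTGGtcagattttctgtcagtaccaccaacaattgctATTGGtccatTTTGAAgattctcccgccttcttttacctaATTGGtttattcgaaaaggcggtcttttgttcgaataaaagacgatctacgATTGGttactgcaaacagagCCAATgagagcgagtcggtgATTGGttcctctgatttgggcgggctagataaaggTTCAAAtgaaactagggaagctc
Kif11, chr19:37376132-37376381, plus strand: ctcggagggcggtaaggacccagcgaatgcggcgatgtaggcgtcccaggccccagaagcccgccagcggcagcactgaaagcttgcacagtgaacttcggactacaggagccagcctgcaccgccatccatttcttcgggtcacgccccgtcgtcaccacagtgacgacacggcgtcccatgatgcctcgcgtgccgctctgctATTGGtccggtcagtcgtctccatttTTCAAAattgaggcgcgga

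In Mcm5 the capital run TTTCGCGCCAAA holds a pair of overlapping E2F sites, 153 and 149 bases before the start, and in Mcm6 there is such a pair at 110 and 106 bases and a further site at 47. Cdk1 was the mitotic member with an E2F site. A CHR core lay within 30 bases of the start in 6 mitotic members, Cdc20, Cdk1, Kif11, Prc1, Top2a and Ube2c, among them the cores 15, 23 and 19 bases before the start in Cdk1, Top2a and Kif11. Top2a also had 6 CCAAT boxes. Members with such a core had unlike values, since Cdc20 and Ube2c were near 0 and Top2a and Kif11 at -0.87 and -0.88 within mice labelled Lcn2-/-.

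Other genes of the cycle were listed by role. Of 50 other S-phase genes, 1 was called higher and 2 lower in WT mice with IMQ, and 0 higher and 8 lower in mice labelled Lcn2-/-, with medians of -0.17 and -0.52. Of all genes tested, 14.2% were called higher and 14.3% lower in WT mice, and 14.1% and 11.2% in mice labelled Lcn2-/-. E2f7, a repressor of E2F targets, rose in WT mice from 13.9, 4.21 and 13.8 to 42.05, 22.65 and 37.9 CPM (log2 fold change 1.69, SE 0.41, adjusted p = 0.0107). Dut and Ung, which keep uracil out of DNA, fell there by 0.88 and 0.87 on the log2 scale (adjusted p = 0.0354 and 0.0497), calls that were lost without WT control mouse 1 or 3 or any WT IMQ mouse. Pole2, of DNA polymerase epsilon, fell in mice labelled Lcn2-/- from 10.4, 14.3 and 10.7 to 5.495, 5.554 and 4.497 CPM (log2 fold change -1.18, SE 0.23, adjusted p = 0.00422). Mcm8, an MCM helicase of DNA repair, and Prim1, the catalytic subunit of primase, fell there by 1.07 and 0.83 on the log2 scale (adjusted p = 0.0155 and 0.0279), and both calls were lost without control mouse 2 or IMQ mouse 3 of that label. Of 55 other mitotic genes, 0 were called in WT mice and 1, the checkpoint kinase Ttk, lower in mice labelled Lcn2-/- (-1.07, SE 0.33, adjusted p = 0.0343, lost without control mouse 2 or 3 or any IMQ mouse of that label), with medians of -0.01 and -0.57. Between the IMQ groups 0 of either list were called, with a median of -0.36 for each list, where 2.19% of all genes were called higher and 2.6% lower.

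Regulators of G1 moved in both directions. Of 13 G1 cyclins, CDKs and their drivers, 3 were called higher and 3 lower in WT mice with IMQ, and 1 higher and 3 lower in mice labelled Lcn2-/-. Of all genes tested, 14.2% were called higher and 14.3% lower in WT mice, and 14.1% and 11.2% in mice labelled Lcn2-/-, so counts this small do not set the list apart. Ccnd2, a cyclin D, fell in WT mice from 355, 159 and 336 to 51.9, 88.5 and 50.2 CPM (log2 fold change -2.16, SE 0.36, adjusted p = 0.00126) and in mice labelled Lcn2-/- by 1.91 on the log2 scale (adjusted p = 0.00331). Ccnd1, another cyclin D, fell in both, by 0.86 (adjusted p = 0.00885) in WT mice and by 1.05 (adjusted p = 0.00383) in mice labelled Lcn2-/-. Mycn, a relative of Myc, likewise fell in both, by 4.23 (adjusted p = 0.002) and by 3.88 (adjusted p = 0.0039), and was at 45.7, 5.72 and 48.4 CPM in WT control mice. Myc, which drives growth and cell-cycle entry, rose in WT mice from 56.2, 63.5 and 63.6 to 92.2, 111 and 100.4 CPM (log2 fold change 0.73, SE 0.12, adjusted p = 0.000982), and Cdk6, the partner of D cyclins, rose by 1.13 (adjusted p = 0.00105). Both were lower in IMQ mice labelled Lcn2-/- than in WT IMQ mice, Cdk6 by 0.84 (adjusted p = 0.0349) and Myc by 0.51 (adjusted p = 0.039), and each call was lost on leaving out WT IMQ mouse 1 or 3 or any IMQ mouse labelled Lcn2-/-. Of 17 inhibitors, pocket proteins and quiescence genes tested, 2 were called higher and 4 lower in WT mice and 0 in mice labelled Lcn2-/-, beside the same shares of all genes. Cdkn1a, the p21 inhibitor, rose in WT mice from 141, 130.3 and 164 to 261, 257 and 221 CPM (log2 fold change 0.77, SE 0.14, adjusted p = 0.00205). Cdkn2c, an inhibitor of CDK4 and CDK6, fell there from 79.9, 57.8 and 68.9 to 26.5, 42.2 and 24.0 CPM (log2 fold change -1.16, SE 0.24, adjusted p = 0.00493). Rbl2, a pocket protein, fell by 0.46 (adjusted p = 0.0208), a call that was lost without WT control mouse 2 or WT IMQ mouse 1 or 3. Between IMQ groups 1 was called, the inhibitor Cdkn1c, higher in mice labelled Lcn2-/- (1.27, SE 0.30, adjusted p = 0.04), where 2.19% of all genes were called higher.

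Marker genes of hair growth and of the epidermis were counted beside the members. The summed level of 29 tested anagen hair matrix and sheath genes was 4293, 209.5 and 2821 CPM in WT control mice, 580.5, 13541 and 5379 CPM in control mice labelled Lcn2-/-, 136 to 286 CPM in WT IMQ mice and 146 to 181 CPM in IMQ mice labelled Lcn2-/-. WT control mouse 2, the library lowest in mitotic members, was the control lowest in hair genes, and the control labelled Lcn2-/- that was highest in hair genes, mouse 2, was highest in mitotic members. Among the 3 controls labelled Lcn2-/- the hair sums and the mitotic sums had the same order. Mice 1 and 3 of them, at 580.5 and 5379 CPM of hair genes, had mitotic sums of 1278 and 1378 CPM. The order did not hold between WT control mice 1 and 3, where mouse 1 was higher in hair genes and lower in mitotic members. Nor did it hold across labels. Mouse 3 of the controls labelled Lcn2-/- was above WT control mice 1 and 3 in hair genes and below them in mitotic members. Of the hair genes 11 were called lower and 1 higher with IMQ in WT mice, against 14.3% and 14.2% of all genes. In mice labelled Lcn2-/- 27 were called lower, against 11.2% of all genes. Up to 10 hair genes of the list had 0 counts in a library. Shh, made in the hair matrix, was at 35.0, 3.05 and 32.4 CPM in WT control mice and between 0.134 and 0.823 CPM in WT IMQ mice. Of 12 genes of the telogen, or resting, bulge, 7 were called lower and 1 higher with IMQ in WT mice, and 6 lower and 1 higher in mice labelled Lcn2-/-. The shares of all genes were 14.3% lower and 14.2% higher in WT mice, and 11.2% and 14.1% in mice labelled Lcn2-/-. The part of hair growth in the members' levels was not tested.

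Basal keratinocyte genes went the other way. Their 10 genes summed to 3038 to 4763 CPM in WT control, 15723 to 22865 CPM in WT IMQ, 3283 to 4032 CPM in control and 9481 to 13407 CPM in IMQ mice labelled Lcn2-/-, with 8 of 10 called higher in WT mice and 5 of 10 in mice labelled Lcn2-/-, and 3 of 10 lower between the IMQ groups. Suprabasal and stress keratinocyte genes summed to 2688 to 4580, 23637 to 36064, 3093 to 4000 and 13880 to 20525 CPM in the same order, with 7 and 8 of 10 called higher with IMQ. Of all genes tested, 14.2% were called higher with IMQ in WT mice and 14.1% in mice labelled Lcn2-/-, and 2.6% were called lower between the IMQ groups. The mitotic members summed to at most 1435 CPM in those IMQ mice, below 2 of the 3 WT controls, while the basal genes summed to more than in any control. Of the basal sums, Krt14 alone held 10042 to 16988 CPM in WT IMQ mice and 6027 to 8613 CPM in IMQ mice labelled Lcn2-/-. The basal sums of IMQ mice were therefore largely the level of 1 gene. Gene by gene, 9 of 10 basal genes were above 0 with IMQ in WT mice and 7 of 10 in mice labelled Lcn2-/-. Within each genotype the keratinocyte medians were thus above 0 with IMQ and the members' medians below 0. In WT mice the members' median was only -0.09, beside -0.025 over all genes tested. Its sign there changed on leaving out WT control mouse 1 or 3. Between the IMQ groups the medians of all of these lists were below 0. There 9 of 10 basal genes had values below 0 (median -0.60, 8 wholly lower), as were 9 of 10 suprabasal genes (median -0.81, 5 wholly lower, 0 called) and 39 of 40 members (median -0.34). Of all genes tested, 17.3% were wholly lower there. The part of epidermal content in the members' levels was not tested.

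Genes of stromal and immune cells also differed between groups. The 10 fibroblast genes summed to 20800 to 21718 CPM in IMQ mice labelled Lcn2-/- and to 10729 to 18081 CPM in all other mice, with 3 of 10 called higher than in WT IMQ mice. Endothelial genes summed to 953 to 979 CPM there and to 485 to 784 CPM in WT IMQ mice, with 1 of 8 called, and macrophage and dendritic cell genes to 4190 to 5820 and 2591 to 4169 CPM, with 1 of 10 called. These calls were all higher in mice labelled Lcn2-/-, where 2.19% of all genes were called higher. Wholly higher there were 9 of 10 fibroblast, 8 of 8 endothelial and 3 of 10 macrophage and dendritic cell genes, against 16.0% of all genes. Neutrophil genes summed to 26.2 to 94.0 CPM in control mice and 3851 to 10581 CPM in IMQ mice. In IMQ mice most of these sums was S100a9 (means 4777 CPM in WT and 4226 CPM in mice labelled Lcn2-/-) and S100a8 (means 2748 and 3044 CPM). Between the IMQ groups 0 of 10 differed by the adjusted p, and 3 of 10 were higher by the unadjusted p, against 12.5% of all genes. There 9 of 10 were above 0, with a median of 0.77, and 6 lay wholly higher in mice labelled Lcn2-/-, against 16.0% of all genes. T cell genes summed to between 51.3 and 101.3 CPM in all mice, with 6 of 10 called lower and 1 higher in WT mice with IMQ, against 14.3% and 14.2% of all genes. Between the IMQ groups 9 of the 10 T cell genes were above 0, with a median of 0.78 and 0 called higher, and Trbc2, a T cell receptor constant gene named after its value was seen, was called lower at -0.69 (adjusted p = 0.0404). Of 8 adipocyte genes, 3 were called lower in WT mice and 2 in mice labelled Lcn2-/- with IMQ, against 14.3% and 11.2% of all genes. Between the IMQ groups 8 of 8 were above 0, with a median of 0.81 and 0 called. There 4 lay wholly higher in mice labelled Lcn2-/-, against 16.0% of all genes. The part of these shifts in cell content in the lower member levels of IMQ mice labelled Lcn2-/- was not tested.

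**Figure D4:**
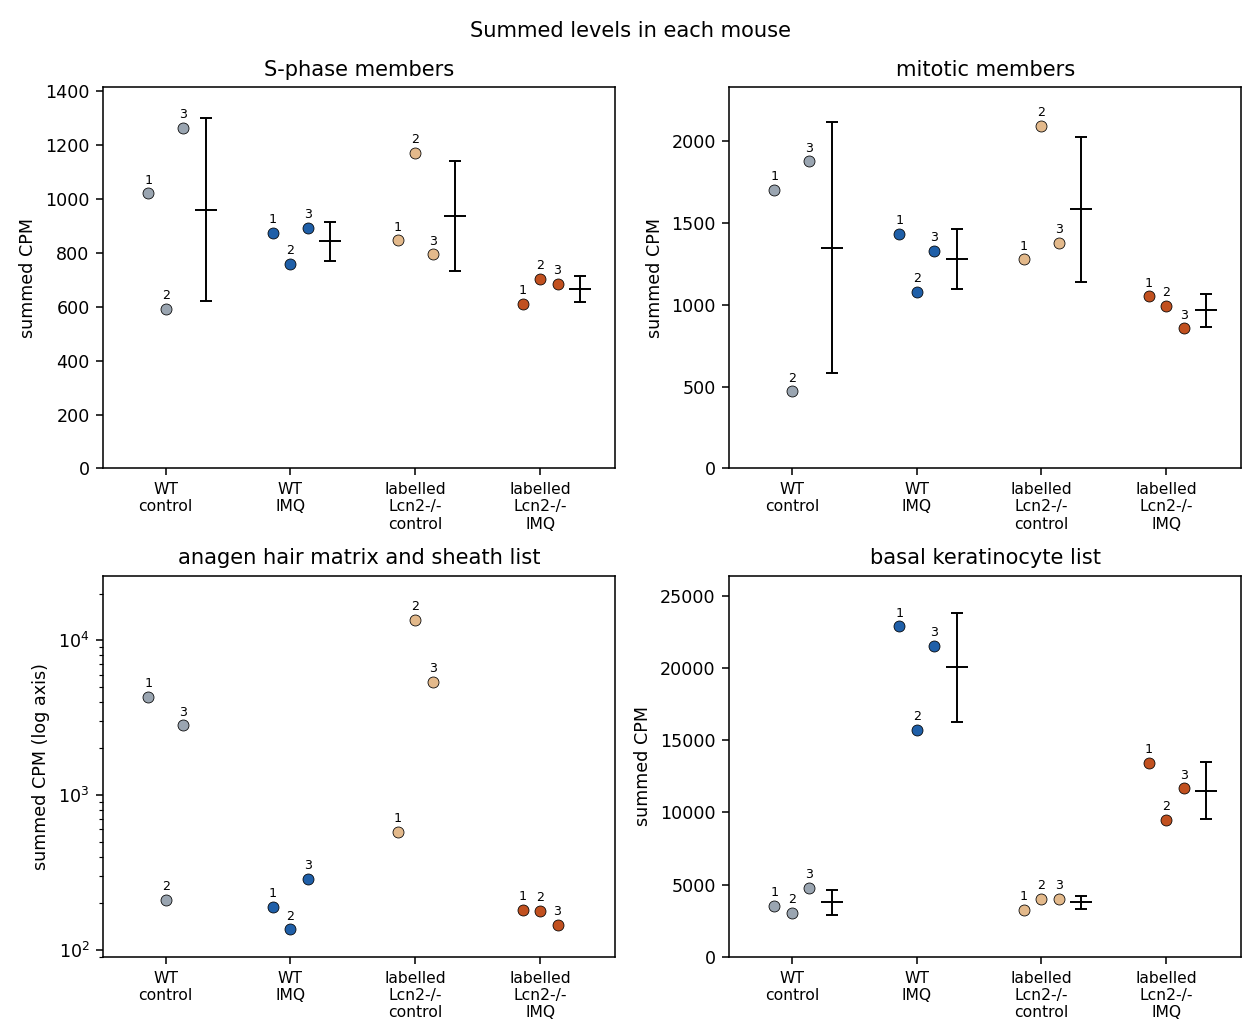
Summed CPM in each mouse for the 16 S-phase and 24 mitotic members (upper panels), for the anagen hair list on a log axis and for the basal keratinocyte list (lower panels), with group mean and SD (n = 3) as bars in the 3 linear panels. The mitotic sum is 471.5 CPM in WT control mouse 2, whose hair sum, 209.5 CPM, is also the lowest of the controls. Basal keratinocyte sums are 9481 CPM or more in IMQ mice, of which Krt14 alone is 6027 CPM or more, and at most 4763 CPM in controls.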

How the data were processed

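The members, roles and gene lists were chosen with earlier results of these data known. Bulk RNA-seq libraries of 12 skin samples were read from the table of raw counts per Ensembl gene that the authors deposited. Paired reads were 150 bases long, and the submitters' processing notes name HISAT and mm8. The counting tool, annotation and strand setting are not given in the sources used here. Names came from GENCODE M21 (GRCm38), which matched 52073 of 56923 identifiers (91.48%), and unmatched identifiers held 0.567% of counts. Low genes were removed with filterByExpr at its 10-count and 15-total minimums. The rest were tested with edgeR 4.0.16 in R 4.3.3, as a robust quasi-likelihood fit of 4 group means over 12 mice with TMM scaling. DESeq2 1.42.0 was an alternative. CPM are TMM-scaled. Values in every mouse are given for the 2 to 4 members of each role with the highest mean CPM, and other genes are named from the lists by smallest p, at most 3 per list and comparison, or as markers. Libraries of a group were not duplicates. Alternatives were other scalings, filters, a replicate block, the compared mice only and leaving out each mouse. On simulated counts with 200 genes changed among 18529 in WT IMQ against WT control, edgeR recovered 153, with 9 of 162 calls false. The genes raised there had a median log2 fold change of 2.01, larger in size than any member's, and no mouse was drawn apart from its group. The recovery therefore does not tell how often changes of the members' size would be called.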

Additional observations from a re-analysis of the deposited data

How the results depend on the processing

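Replicate numbers mark different animals and same-numbered mice did not deviate together (correlations of deviations from -0.555 to 0.199), so the replicate block served as an alternative only. With the block, the medians were -0.06 (WT IMQ against WT control), -0.58 (IMQ against control labelled Lcn2-/-), -0.32 (between IMQ groups), 0.20 (between control groups) and -0.50 (interaction), and Pcna was still the 1 member called. The calls of Dut, Ung, Prim1, Ttk, Cdk6, Myc and Cdkn1c were not past the threshold with the block. Members called lower in mice labelled Lcn2-/- were 3 with DESeq2 and 19 with the compared mice only, and 0 to 1 on leaving out a mouse. Between IMQ groups, 2 were called with the compared mice only. In WT mice, leaving out a mouse gave 0 to 10 called lower and 0 to 1 higher. Against WT control mice 1 and 3 alone, an alternative chosen after seeing the data, 27 members were wholly lower. Values near 0 changed sign. Cdc20 within mice labelled Lcn2-/- was at 0.003 with RLE size factors, 0.002 with DESeq2 and -0.151 to 0.219 on leaving out a mouse. Ube2c between IMQ groups was at 0.005 with RLE, 0.018 with no filter on low counts, 0.00 with the block, 0.008 with DESeq2, 0.012 with the compared mice only and -0.098 to 0.152 on leaving out a mouse. On leaving out a mouse, Gins2 between IMQ groups ran from -0.061 to 0.212 and Mki67 in WT mice from -0.473 to 0.204. The cause was not tested for any of these.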
